A study of Mus musculus with 24 samples.

Results

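P19 and F9 are mouse embryonal carcinoma lines, the cultured stem cells of teratocarcinomas, and their transcriptomes were compared directly, P19 EC against F9 EC. The arrays were chosen by their column titles in the deposited table of non-normalized intensities, which gave 4 of the 24 arrays of the series, 2 for each line. The series set out to compare ES cells, epiblast stem cells (EpiSCs) and carcinoma cells with and without overexpressed Sox2, in 12 groups of 2 arrays. Total RNA was hybridised to Illumina MouseRef-8 v2 BeadChips, which carry 25697 probes. Both lines are labelled male, neither EC group carried a transgene, and strain, passage and culture medium are not given in the sources used here. Each line stands for itself alone, and the labels call the 2 arrays of a group biological replicates without naming separate cultures, so p-values measure only the spread between such arrays. A further 4 arrays hold the same lines overexpressing wild-type Sox2 (P19-Sox2 and F9-Sox2, both labelled male), and 4 hold female ES cells and female EpiSCs of OG2 background (ESCf and EpiSCf). They are used below to repeat the comparison on other RNA and to set it beside a primed against a naive stem cell.

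Embryonal carcinoma cells share with the early embryo the transcription factors Oct4 (gene Pou5f1) and Sox2, which together hold cells in the pluripotent state. Pluripotency has a naive form, that of the preimplantation epiblast and of ES cells, held by LIF signalling through STAT3 and by factors such as Esrrb, Klf4 and Nanog, and a primed form, that of the postimplantation epiblast and of EpiSCs, marked by Fgf5 and Otx2 and held by FGF and Activin. F9 cells are known for turning into primitive and parietal endoderm when given retinoic acid, and P19 cells for forming neurons with retinoic acid and cardiac muscle with dimethyl sulfoxide.

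Both lines carried the markers of embryonal carcinoma. Of 10 such markers, Pou5f1, Sox2, Nanog, Sall4, Tdgf1, Lin28a, Alpl, Cd9 and Utf1 were detected on all 4 arrays, and Epcam was not matched to a probe. Median intensity was 128 to 144 on these arrays and 38.3% to 39.3% of probes were detected (detection p under 0.01). Replicate arrays correlated at 0.994 in each line over the tested genes. Of 10 tested fibroblast and feeder genes, 6 were detected on both P19 EC arrays and 4 on both F9 EC arrays, while Col1a1 and Col3a1 were detected on none of the 4. Col5a2 and Dcn were detected in P19 EC and not in F9 EC (log2 1.57 and log2 1.47, both called). Over the list 4 genes were called higher, 3 lower and 3 not called, beside 28% higher and 27% lower of all tested genes. The summed intensity of the list was 2505 and 2528 in P19 EC against 1286 and 1083 in F9 EC, most of it from Fstl1, Cxcl12 and Timp1. Cxcl12, 1 of the 12 largest rises given below, had a mean of log2 10.45 in P19 EC and 5.18 in F9 EC and weighs heavily in these sums. The part of fibroblast or feeder cells in the results was not tested. Gata4 and Afp, markers of differentiated endoderm, were not detected on both arrays of any group and were not tested. Other endoderm genes were detected, among them Gata6 and Dab2 in P19 EC and Sox7 in F9 EC. Of 14 tested extraembryonic endoderm genes, 11 were detected on both P19 EC arrays and 7 on both F9 EC arrays. One label was not matched by its transcripts. Eif2s3y, a translation initiation gene of the Y chromosome, was at log2 9.38 and 9.28 in P19 EC, whereas in F9 EC it was not detected (4.48 and 4.41), at least 12.1-fold higher in P19 (log2 difference 4.89, SE 0.13, adjusted p = 3e-15). Kdm5d, a Y-linked histone demethylase, showed the same (6.44 and 6.67 against 4.58 and 4.49), and Xist was detected on none of these arrays. F9 cells thus gave no measured signal from these Y-linked genes although they are labelled male.

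Limma's moderated test, fitted over all 24 arrays with Benjamini-Hochberg adjustment, called 4920 of 8932 tested genes at adjusted p under 0.05 (55.1%), with 2504 higher in P19 EC (28%) and 2416 lower (27%). Counts of called list members below are to be read beside these shares. Without any 1 of the 4 arrays, 4175 to 4241 genes were called. The 4 arrays did not overlap between groups for 79.4% of genes. At least 2-fold, 1114 genes were higher (12.5%) and 1097 lower (12.3%). Of these, 441 of the higher and 355 of the lower genes were detected on neither array of the dimmer line, so their folds are lower bounds. Differences beyond 16-fold numbered 28 in the higher direction and 48 in the lower. All log2 values below are background-corrected, quantile-normalized levels, differences are P19 EC minus F9 EC unless said otherwise, and a fold given as "at least" divides the brighter mean by the detection limit of the dimmer arrays.

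The 12 largest falls in P19 EC included 5 genes of the naive list. Tcl1, a coactivator of the kinase Akt that ES cells express, stood at log2 12.18 and 12.12 in F9 EC and 4.53 and 4.59 in P19 EC, at least 88.8-fold lower (log2 difference -7.59, SE 0.12, adjusted p = 3.1e-18). Esrrb, an orphan nuclear receptor of the naive network, stood at 13.66 and 13.75 in F9 EC and 6.17 and 6.26 in P19 EC, 180-fold lower (log2 difference -7.49, SE 0.16, adjusted p = 7.9e-17). For both genes the arrays of the lines lay far apart and replicates lay close together. Zfp42, the zinc-finger gene also called Rex1, stood at 11.98 and 12.02 against 5.77 and 5.61, 79.4-fold lower, and 1 of the 2 P19 EC arrays still detected it. Laptm5, a lysosomal membrane protein, Rbmxl2, a germ-line RNA-binding protein, and Sox21, a repressor of the Sox family, were at least 77.1-fold, at least 39-fold and at least 49.3-fold lower. The homeobox gene Gbx2 and the oocyte and embryo gene Ooep were 64.4-fold and 64.4-fold lower, and the X-linked homeobox gene Rhox5 was 51.6-fold lower. Dmtn, which binds actin, Fam25c and Aard completed the 12 largest falls, each at least 25.9-fold lower. None of the 12 overlapped between lines on any array, which the rule that chose them required.

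The 12 largest rises in P19 EC included Zic1, Npy and Otx2. Zic1, a zinc-finger factor of the early neural plate, stood at log2 10.95 and 11.10 in P19 EC and 4.41 and 4.47 in F9 EC, where neither array detected it, at least 39.1-fold higher (log2 difference 6.58, SE 0.14, adjusted p = 6.8e-17). Npy, a neuropeptide, stood at 10.96 and 11.03 against 4.58 and 4.42, at least 38.3-fold higher (log2 difference 6.49, SE 0.13, adjusted p = 6.8e-17). Otx2, a homeobox factor of the primed epiblast and later forebrain, was detected in both lines but stood at 12.09 and 12.19 in P19 EC against 6.59 and 6.81 in F9 EC, 43.5-fold higher (log2 difference 5.44, SE 0.18, adjusted p = 3.2e-14). These 3 genes separated the lines completely, again a condition for a place among the 12. The ubiquitin ligase Pdzrn3, the LIM-domain-binding cofactor Ldb2, the chemokine Cxcl12 and the chloride channel Cftr were at least 36-fold, at least 17.4-fold, at least 26.2-fold and at least 12.7-fold higher. Beside Eif2s3y, the list of 12 ended with the sorting nexin Snx5 (at least 17.8-fold), Fam171b (at least 13.1-fold), the ephrin Efna5 (at least 11.7-fold) and the kinase Stk39 (25.8-fold). Snx5 stood at 10.63 and 10.77 in ESCf and 8.95 and 8.54 in EpiSCf, and at 5.10 and 5.44 in EpiSCs of a male line (EpiSCm), so F9 was not the only line with a low level.

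**Figure D1:**
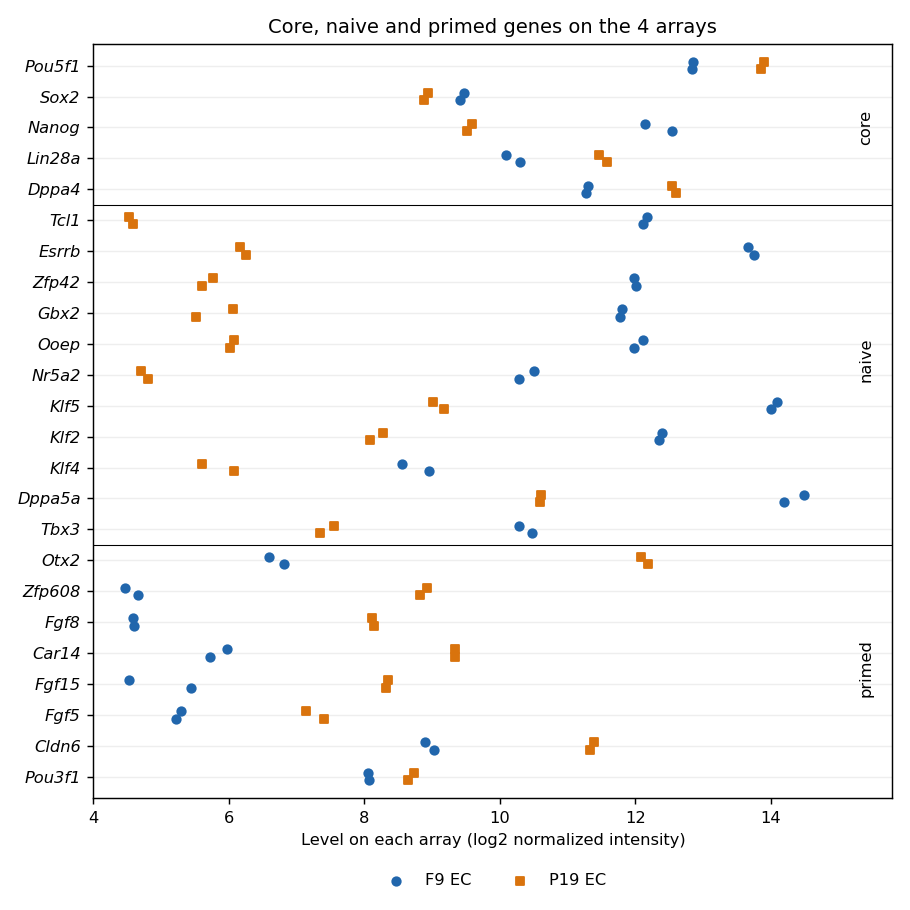
Levels on each of the 4 arrays (points, log2 of background-corrected and quantile-normalized intensity) for 24 genes of the core, naive and primed groups, with the streak gene Fgf8 placed among the last, 1 row a gene. F9 EC arrays are blue and P19 EC arrays orange. The lines lie near each other for Pou5f1 and Sox2, the naive genes from Tcl1 to Tbx3 lie far to the right in F9 EC, and Otx2, Zfp608 and Fgf8 lie to the right in P19 EC.

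The 13 tested core pluripotency genes were detected on both arrays of each line, and Nanog differed most. At least 2-fold, 3 of the 13 were higher in P19 EC and 3 lower, beside 12.5% and 12.3% of all tested genes. Pou5f1 stood at log2 13.90 and 13.86 in P19 EC and 12.86 and 12.84 in F9 EC, 2.05-fold higher in P19 (log2 difference 1.04, SE 0.13, adjusted p = 2.1e-06), and its second probe gave 1.14. Sox2 stood at 8.94 and 8.88 in P19 EC and 9.48 and 9.42 in F9 EC, 1.46-fold lower in P19 (log2 difference -0.54, SE 0.13, adjusted p = 0.0014). Its second probe differed by -1.08, in the same direction and by more. Nanog, the homeobox factor that holds naive cells undifferentiated, stood at 9.59 and 9.52 in P19 EC against 12.15 and 12.54 in F9 EC, 6.92-fold lower (log2 difference -2.79, SE 0.14, adjusted p = 1.7e-11). In all 3 genes the arrays of the lines did not overlap. Lin28a, the RNA-binding blocker of let-7 maturation, and Dppa4, a chromatin protein of pluripotent cells, rose by log2 1.33 and 1.29 in P19. Tcf7l1, the repressive Wnt effector of ES cells, fell by 1.19 on the log2 scale and Trim28, the corepressor of endogenous retroviruses, fell by 1.14. Of the 13 core genes tested out of 16 listed, 3 were higher, 7 lower and 3 not called, with a median log2 difference of -0.40 beside 0.00 over all tested genes. Sall4 (log2 0.15, adjusted p = 0.41) and Tdgf1 (log2 0.43, adjusted p = 0.086) were among those not called.

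Nearly the whole naive list lay lower in P19 EC. Of 18 tested genes out of 22 listed, 16 were lower and 0 higher, 15 of them by at least 2-fold, and the median log2 difference was -3.93. The summed intensity of the list was 3465 and 3357 in P19 EC against 83030 and 78094 in F9 EC. In P19 EC both arrays detected 9 of the 18 genes and neither array detected 5, while in F9 EC both arrays detected 17. The Krüppel-like factors differed among themselves. Klf4 stood at log2 8.56 and 8.96 in F9 EC and 5.60 and 6.07 in P19 EC, 7.61-fold lower (log2 difference -2.93, SE 0.20, adjusted p = 7.2e-10), and its 2 other kept probes differed by -1.27 and -2.46. Klf5 was 30.8-fold lower and Klf2 18.4-fold lower, yet both remained detected on each P19 EC array (9.02 and 9.18 for Klf5, 8.27 and 8.08 for Klf2). Nr5a2, a nuclear receptor that binds the Oct4 promoter, was at least 26.4-fold lower and was not detected in P19. Tbx3, a T-box factor, and Dppa5a, an RNA-binding protein, were 7.66-fold and 13.4-fold lower but still detected in P19. There were 2 exceptions. Dppa3, a maternal-effect and germ-cell gene, was detected in both lines and stood at 6.60 and 6.27 in P19 EC and 6.64 and 5.99 in F9 EC (log2 0.13, adjusted p = 0.66), and Nr0b1, also called Dax1, was detected on neither line's arrays. P19 EC kept a lower but detected signal of Klf2, Klf5, Tbx3 and Dppa5a and was at or near background for Tcl1, Nr5a2 and Zfp42.

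The promoter of Zfp42 is shown because the gene is known as a target of Oct4 and Sox2 and was 79.4-fold lower in P19 EC, where Pou5f1 was higher. The stretch is 120 bases from RefSeq (GRCm38.p6, chr8:43307132-43307251, minus strand, 242 to 123 bases before the start of the gene, 5′ to 3′), with a match to the octamer ATGCAAAT, here on the opposite strand, in capitals.
Zfp42: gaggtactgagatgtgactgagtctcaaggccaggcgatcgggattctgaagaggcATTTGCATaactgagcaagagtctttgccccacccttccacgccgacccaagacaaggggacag
Promoter windows reach from 250 bases before to 50 bases after a gene's start, and 81.3% of the tested genes had one. The octamer, searched on both strands, was in 1 of the 12 naive genes with a window (8.33%), in 1.62% of tested genes and in 1.74% of all 32851 windows. It was in 1.94% of the genes at least 2-fold lower in P19 EC and in 1.34% of those at least 2-fold higher. CATTGT, the letters of a Sox binding motif, was in 1 of the 12, that of Esrrb, and in 8.56% of tested genes.

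The LIF pathway differed at the receptor, the kinase, the transcription factor and its targets. Of 13 tested genes out of 16 listed, 9 were lower in P19 EC and 2 higher, with a median of -1.58. Il6st, the gp130 subunit through which LIF signals, stood at log2 7.30 and 7.19 in F9 EC and was not detected in P19 EC (5.01 and 5.02), at least 2.97-fold lower (log2 difference -2.24, SE 0.28, adjusted p = 2.2e-06). Lifr, the other subunit, was called lower (log2 -0.67) but was detected in neither line. Jak1, the receptor's kinase, was at least 2.34-fold lower and Stat3 2.99-fold lower (8.13 and 8.28 in P19 EC against 9.82 and 9.74 in F9 EC). Every one of these transcripts was on the low side in both P19 arrays. Socs3, the feedback inhibitor that STAT3 induces, stood at 10.06 and 10.09 in F9 EC and 7.15 and 7.22 in P19 EC, 7.43-fold lower (log2 difference -2.89, SE 0.15, adjusted p = 2.6e-11). Bcl3, another target, was at least 3.9-fold lower, and Gbx2, given above, is a STAT3 target in ES cells. Pim2, a kinase, went the other way, at least 10.3-fold higher in P19 (9.19 and 9.01 against 5.26 and 5.15), while its relative Pim1 was at least 1.39-fold lower and Pim3 was not called (log2 -0.10).

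More primed genes were higher than lower in P19 EC. Of 18 tested genes out of 22 listed, 11 were higher, 1 lower and 6 not called, with a median of 0.51. Fgf5, the standard primed marker, stood at log2 7.14 and 7.41 in P19 EC and 5.30 and 5.22 in F9 EC, where neither array detected it, at least 2.91-fold higher (log2 difference 2.01, SE 0.19, adjusted p = 8.3e-08). Zfp608, a zinc-finger gene, was at least 8.79-fold higher, the carbonic anhydrase Car14 11.3-fold, the growth factor Fgf15 at least 6.07-fold and the tight-junction protein Cldn6 5.26-fold. All 5 separated the lines on every array. Other primed markers differed less or were not detected. Car4 and Nkx1-2 were detected in neither line, Zic2 was detected in neither line (log2 -0.08), and Pou3f1, a POU factor of the epiblast, differed by log2 0.64 (SE 0.16). Dnmt3b, a de novo DNA methyltransferase, was detected in both lines and differed by log2 0.36. Etv4, an ETS factor that FGF signalling induces, was the 1 member called lower (log2 -1.57).

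Genes of the primitive streak and its derivatives were also unevenly expressed in P19 EC. Of 15 tested genes out of 21 listed, 8 were higher and 3 lower, with a median of 0.46, and the gene T was not tested. Fgf8, a growth factor of the streak, stood at log2 8.11 and 8.15 in P19 EC and 4.59 and 4.60 in F9 EC, at least 5.26-fold higher (log2 difference 3.54, SE 0.20, adjusted p = 6.5e-11). Cdx2, a caudal homeobox factor, Wnt8a, a Wnt ligand, and Cxcr4, the receptor of Cxcl12, were at least 3.84-fold, at least 2.79-fold and at least 2.62-fold higher, and Gsc, the organizer homeobox gene, at least 1.32-fold. F9 EC arrays detected none of these 5. Mixl1 and Foxa2 were detected in neither line, and Eomes, a T-box factor of the streak, was not called (log2 0.29, adjusted p = 0.3). Among the 8 tested neural genes of 18 listed, 5 were higher and 2 lower, and apart from Zic1 and Npy the rises were small. Nes, an intermediate filament of neural progenitors, differed by log2 0.78 on a probe not detected in F9 EC. Its other kept probe differed by -0.37 and was not called. Dcx was called but detected in neither line. Sox1, Pax6 and Tubb3 were not tested, since no group detected them on both arrays.

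In the embryonic signalling pathways single ligands, antagonists and targets differed between the lines, in both directions. Bmp4, a growth factor that cooperates with LIF in ES cells, stood at log2 12.19 and 12.06 in F9 EC and 7.01 and 7.13 in P19 EC, 33.3-fold lower (log2 difference -5.06, SE 0.25, adjusted p = 1.2e-11). Id1, a target of BMP signalling, was 2.93-fold lower, whereas Id3 was higher by log2 0.62 and Id2 was not called (log2 0.37). The target Msx1, the antagonist Nog and the receptor Bmpr1b were at least 1.68-fold, at least 1.38-fold and at least 1.78-fold higher in P19, each at background in F9 EC. The BMP list held 6 genes higher and 2 lower of 15 tested, beside 28% and 27% of all tested genes, and Bmp4 and Id1 were the 2 that fell. In the Nodal and Activin list, 4 of 15 tested genes were higher and 5 lower. The Activin subunit gene Inhbb was at least 7.03-fold lower and not detected in P19, Fst, the Activin antagonist, was at least 5.29-fold higher, and Nodal itself was 2.19-fold higher. Lefty2, a Nodal antagonist and target, was 2.1-fold lower, while Lefty1 was not called (log2 0.08).

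Among 19 tested genes of FGF and ERK signalling, 8 were higher in P19 EC and 6 lower. Fgf4, the ligand of naive cells, was 3.16-fold lower, and Fgf5, Fgf8 and Fgf15 were the ligands that were higher. The feedback inhibitors divided: Spry4 was 2.46-fold lower and Spred1 2.55-fold lower, Dusp4 was 4.01-fold higher and Dusp6 was not called (log2 -0.09). In the Wnt list 7 of 22 tested genes were higher and 7 lower, near the 28% and 27% of all tested genes. Notum, a secreted Wnt deacylase, was at least 6.32-fold lower and Sfrp1, a secreted antagonist, 4.94-fold lower, while the coreceptor Lrp6 was at least 3.35-fold higher and the receptor Fzd10 3.03-fold higher. Axin2, the usual readout of Wnt activity, was not called (log2 0.44, adjusted p = 0.15). Retinoid genes, of interest because both lines are used with retinoic acid, gave 2 higher and 3 lower of 15 tested. Rarg, a retinoic acid receptor, stood at log2 8.08 and 8.27 in F9 EC and was not detected in P19 EC (5.08 and 4.73), at least 5.66-fold lower (log2 difference -3.27, SE 0.24, adjusted p = 1.8e-09), and its partner Rxrb was 3.59-fold higher. Cyp26a1, the retinoic acid hydroxylase, and Rarb were detected in neither line.

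**Figure D2:**
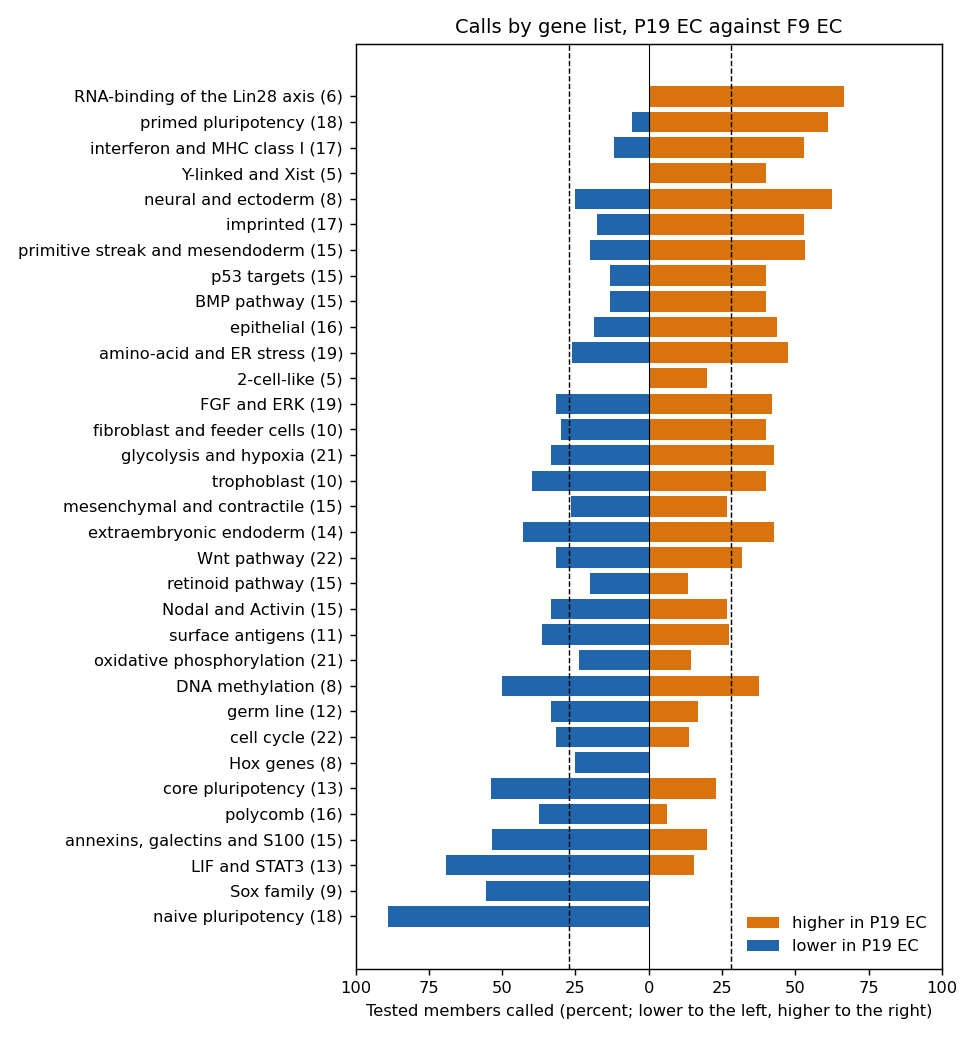
Share of tested members called higher (orange) or lower (blue) in P19 EC than in F9 EC, in percent, for 33 gene lists with the number of tested members in brackets. Dashed lines mark the shares over all tested genes, 28% higher and 27% lower. The naive and LIF lists reach farthest to the left, and the primed, interferon and imprinted lists reach to the right.

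Extraembryonic endoderm genes were called in both directions. Of 14 tested genes out of 23 listed, 6 were higher in P19 EC and 6 lower. Sox7, a factor of primitive endoderm, stood at log2 9.60 and 9.75 in F9 EC and was not detected in P19 EC (4.63 and 4.99), at least 16-fold lower (log2 difference -4.86, SE 0.20, adjusted p = 9.4e-13), and the laminin Lama1 was 6.79-fold lower. Gata6, the GATA factor of the same lineage, was at least 3.27-fold higher and Dab2, an endocytic adaptor, at least 4.55-fold higher in P19, both at background in F9 EC. The laminin chains split too, with Lamb1 at least 2.25-fold higher. Sox17 was detected in neither line. Of 10 tested trophoblast genes 4 were higher and 4 lower: Rhox5 and Rhox9 were 51.6-fold and at least 2.07-fold lower, and Gata3 was at least 1.93-fold higher. In the germ line list 2 of 12 were higher and 4 lower, led by Rbmxl2. The 2-cell-like genes were at or near background, since none of the 5 tested was detected on both arrays of either line.

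More interferon-inducible and antigen-presentation genes were higher than lower in P19 EC. Of 17 tested genes out of 23 listed, 9 were higher and 2 lower, with a median of 0.69. Irf1, the transcription factor that drives many of these genes, stood at log2 12.00 and 12.08 in P19 EC and 8.12 and 8.25 in F9 EC, 14.4-fold higher (log2 difference 3.85, SE 0.13, adjusted p = 3.3e-14). Gbp2, a guanylate-binding GTPase, stood at 8.90 and 8.89 in P19 EC and was not detected in F9 EC (4.49 and 4.52), at least 8.93-fold higher (log2 difference 4.39, SE 0.14, adjusted p = 2e-14). Another kept Gbp2 probe differed by 0.68 and was not called. Oasl2, an antiviral synthetase-like gene, and Tap2, a subunit of the peptide transporter for MHC class I, were at least 4.15-fold and at least 4.23-fold higher and at background in F9 EC. Bst2, the virus tether also called tetherin, stood at 9.61 and 9.72 against 7.30 and 6.74, 6.26-fold higher. B2m, the light chain of MHC class I, stood at 9.34 and 9.46 against 7.34 and 7.14, 4.46-fold higher. The arrays of the lines did not overlap for any of these 6 genes. Ifitm3, a restriction factor that pluripotent cells express, was lower in P19 by log2 -0.70, and the MHC heavy chain H2-K1 was detected in neither line. Irf7, Ifit1 and Ifit3 were not tested.

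The promoters of 3 of these genes carry TTTC repeated after any 2 bases, a pattern found in interferon-stimulated response elements, and are shown for that reason. Each stretch is 120 bases from RefSeq (GRCm38.p6, 5′ to 3′ on the gene's strand) with the match in capitals, on either strand: Gbp2 at chr3:142620543-142620662 (plus), B2m at chr2:122147493-122147612 (plus) and Bst2 at chr8:71537532-71537651 (minus).
Gbp2: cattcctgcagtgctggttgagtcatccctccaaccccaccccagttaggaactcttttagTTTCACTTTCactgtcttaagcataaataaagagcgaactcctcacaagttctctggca
B2m: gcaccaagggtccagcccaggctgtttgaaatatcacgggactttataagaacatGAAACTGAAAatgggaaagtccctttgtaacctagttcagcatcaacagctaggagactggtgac
Bst2: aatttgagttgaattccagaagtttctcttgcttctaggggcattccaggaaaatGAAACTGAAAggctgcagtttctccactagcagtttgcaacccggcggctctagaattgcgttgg
The matches begin 59, 139 and 124 bases before the start of Gbp2, B2m and Bst2. The pattern, searched on both strands, was in 6 of the 15 interferon-list genes with a window (40%), namely these 3, Isg15, Ifitm2 and Ifitm3, beside 3.52% of tested genes and 3.44% of all windows. Irf1, Oasl2 and Tapbp rose without it in this window, and Ifitm2 and Ifitm3, which carry it, were lower in P19 EC.

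Several interferon genes differed between the lines in 1 pair of groups and not in the other. In the Sox2-overexpressing arrays, Gbp2 stood at log2 4.73 and 4.53 in P19-Sox2 and 4.60 and 4.50 in F9-Sox2, detected on none, so that the line difference of 4.39 became 0.08 (change -4.30, SE 0.20, adjusted p = 2.1e-10). Oasl2 likewise stood at 4.56 and 4.64 in P19-Sox2 and 4.52 and 4.40 in F9-Sox2, and its line difference moved from 3.32 to 0.14 (change -3.18, adjusted p = 5.2e-08). Irf1 stood at 10.56 and 10.28 in P19-Sox2 and 9.78 and 9.75 in F9-Sox2, which left a line difference of 0.66 (change -3.19, adjusted p = 1.7e-09). Gbp2 and Oasl2 were thus high in the 2 P19 EC arrays alone among the 8 carcinoma arrays. B2m and Bst2 kept their line differences (2.23 and 2.77). Over the list, 9 of 17 genes were called in neither direction between P19-Sox2 and F9-Sox2, and 6 of 17 between P19 EC and F9 EC. Over all 8932 tested genes these counts were 3797 and 4012.

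**Figure D3:**
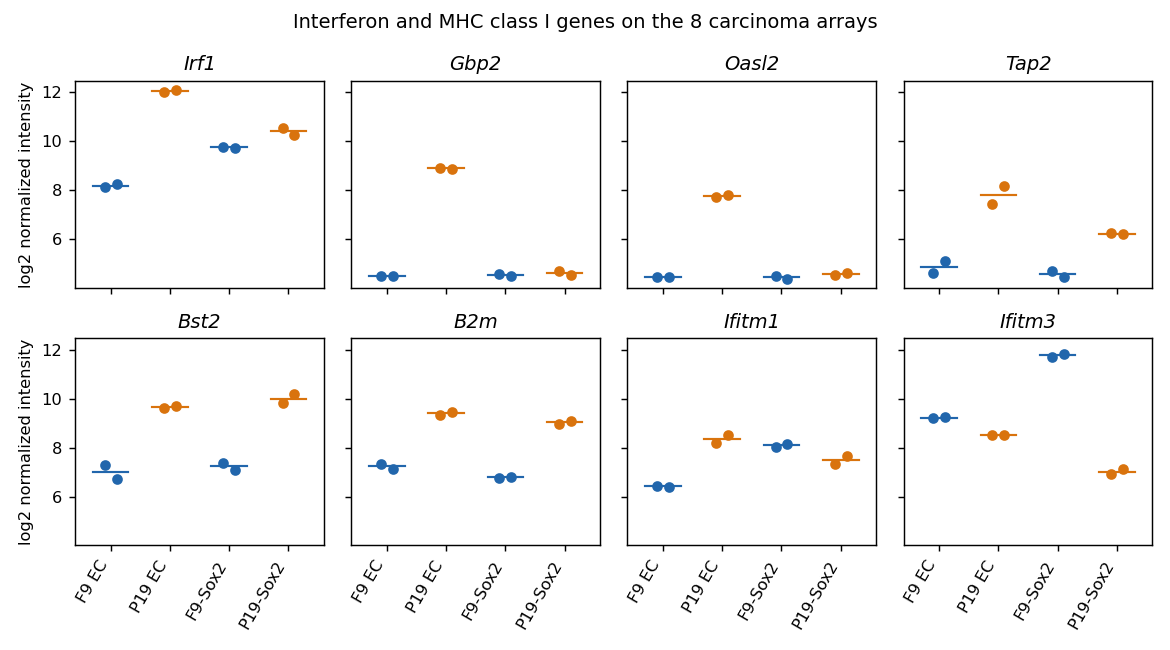
Levels of 8 interferon and MHC class I genes (log2 of normalized intensity, vertical axis) on the 8 carcinoma arrays, grouped as F9 EC, P19 EC, F9-Sox2 and P19-Sox2, 1 panel a gene. Points are arrays and lines group means. Gbp2 and Oasl2 stand up in the P19 EC arrays alone, whereas B2m and Bst2 are high in both P19 groups.

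More imprinted genes were higher than lower in P19 EC. Of 17 tested imprinted genes out of 24 listed, 9 were higher and 3 lower, with a median of 1.01. Phlda2, a brake on placental growth, stood at log2 10.76 and 10.77 in P19 EC and 6.49 and 5.93 in F9 EC, 23.5-fold higher (log2 difference 4.56, SE 0.16, adjusted p = 8.3e-14). The amino acid transporter Slc38a4, the growth factor Igf2 and the receptor adaptor Grb10 were at least 5.32-fold, 4.53-fold and 3.09-fold higher. Cdkn1c, the cyclin-dependent kinase inhibitor p57, went the other way, at least 5.76-fold lower and not detected in P19. Phlda2, Igf2 and Cdkn1c, which lie in neighbouring imprinted domains of chromosome 7, thus did not move in a single direction. The RNA-binding protein Igf2bp3, which binds Igf2 messages, stood at 12.28 and 12.27 against 8.05 and 7.87, 19.9-fold higher (log2 difference 4.32, SE 0.13, adjusted p = 8.9e-15), whereas its relative Igf2bp1 was not called (log2 -0.29).

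Among 22 tested cell-cycle genes, 3 were higher and 7 lower. Plk1, the mitotic polo-like kinase, stood at log2 11.59 and 11.76 in P19 EC and 7.12 and 6.94 in F9 EC, 25-fold higher (log2 difference 4.65, SE 0.15, adjusted p = 3.2e-14). Other mitotic genes did not follow it, with Aurka at log2 -0.14, Cdk1 at log2 -0.30 and Top2a at log2 0.19, none of them called. Cyclins Ccne1 and Ccnd3 were 4.44-fold and 4.42-fold lower and Ccnd1 2.24-fold lower, whereas the cyclin Ccnd2 was 1.77-fold higher, a call lost without P19 EC replicate 2 (log2 difference 0.63).

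The amino-acid and ER stress list held 9 genes higher and 5 lower of 19 tested. Ddit3, the stress factor CHOP, stood at log2 9.71 and 9.47 in P19 EC and 6.21 and 5.75 in F9 EC, 12.2-fold higher (log2 difference 3.61, SE 0.25, adjusted p = 9.4e-10), and Xbp1 and the chaperone Hspa5 were 4.15-fold and 4.03-fold higher. The amino acid transporters Slc7a5 and Slc7a11 were 4.47-fold and 2.16-fold lower, while the serine and asparagine enzymes Psat1, Phgdh and Asns were not called. Glycolytic and hypoxia genes divided 9 to 7 among 21 tested, with the monocarboxylate transporter Slc16a3 3.52-fold higher, the kinase Pdk1 2.74-fold lower and Ndrg1 5.05-fold lower. In oxidative phosphorylation 13 of 21 genes were not called, and Sdhb, a succinate dehydrogenase subunit, was 3.78-fold higher. Of 15 tested p53 targets 6 were higher and 2 lower, with Bbc3, also called Puma, 2.65-fold higher and Gadd45a 3.46-fold lower.

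Of 16 tested polycomb genes 6 were lower in P19 EC and 1 higher, with Phf19, Eed and Mtf2 lower by 2.9-fold, 2.3-fold and 2.01-fold and Pcgf1 2.94-fold higher, while the methyltransferase Ezh2 was not called (log2 0.07). Of 11 tested surface antigens 3 were higher and 4 lower. Cd9, a tetraspanin of ES cells, was 4.92-fold lower and Podxl, a sialomucin, 5.47-fold higher. Both lines had epithelial Cdh1 at nearly equal levels (10.68 and 10.64 in P19 EC, 10.73 and 10.59 in F9 EC, adjusted p = 0.98), but the splicing factor Esrp1 was 8.25-fold higher in P19 and P-cadherin, Cdh3, at least 4.35-fold lower. In the mesenchymal list 4 of 15 tested genes were higher and 4 lower, with Twist1 at least 4.35-fold higher and S100a6 and Vim 4.5-fold and 3.02-fold lower. The Hox list had 8 tested genes, none detected on both arrays of either line.

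The comparison was repeated on arrays of the same lines overexpressing Sox2. Between P19-Sox2 and F9-Sox2, limma called 5135 genes (57.5%), 28.7% higher and 28.8% lower in P19-Sox2, and of the 2211 genes called at least 2-fold in the lines without added Sox2 2162 (97.8%) differed with the same sign and 2030 (91.8%) were also called that way, while 14 were called the opposite way. Over all 8932 genes the log2 differences of the pairs correlated at r = 0.87 and rho = 0.84, as a description across genes measured on 1 array design and normalized together. All 16 naive genes lower in P19 EC were again lower, joined by Dppa3 and Nr0b1. Sox2 itself was 1.9-fold lower in P19-Sox2 than in F9-Sox2 (log2 difference -0.93, SE 0.13, adjusted p = 6.3e-06) on its main probe. Its second probe differed by -1.54, so the lines kept the same order on both probes. 

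Limma's test of the change in the line difference called 892 genes (9.99%). Of these 460 were positive (5.15%) and 432 negative (4.84%), and the positive count fell to 298 without F9 EC replicate 2 and to 302 without P19 EC replicate 2. The largest positive changes were Acta2, Bhlhe40, Lat, Fam107a and Tgfbi. Acta2, smooth-muscle actin, stood at log2 6.64 on both arrays in P19 EC and 10.66 and 10.99 in P19-Sox2, against 4.45 and 4.48 in F9 EC and 4.71 and 4.48 in F9-Sox2, a change of 4.06 (SE 0.22, adjusted p = 1.1e-09). The other kept Acta2 probes were not detected in P19 EC or F9 EC (line differences 0.08, -0.08 and -0.09). In the Sox2-overexpressing pair they differed by 1.68, 1.67 and 3.66, less than the 6.23 of the probe used. The adaptor Lat and Fam107a were detected in P19-Sox2 alone of the 4 carcinoma groups. Bhlhe40, a helix-loop-helix repressor, and the matrix protein Tgfbi lay lower in F9-Sox2 (6.56 and 6.61 for Bhlhe40, 7.01 and 6.90 for Tgfbi) than in F9 EC (10.43 and 10.61, and 10.06 and 10.02), which brought the lines closer. The largest negative changes were Rhox6, Rhox9, Gbp2, Slc40a1 and Ifitm3. Rhox6 and Rhox9, X-linked homeobox genes of placenta and germ line, stood higher in F9-Sox2 (10.11 and 9.99 for Rhox6) than in F9 EC (5.23 and 4.92) and were at background in P19-Sox2 (4.52 and 4.44). Slc40a1, the iron exporter ferroportin, was at background in F9 EC and at 9.39 and 9.15 in F9-Sox2. Ifitm3 stood higher in F9-Sox2 than in F9 EC and lower in P19-Sox2 than in P19 EC, which widened a difference of -0.70 to -4.74. Of the primed markers, Fgf5 stood at 9.31 and 9.22 in P19-Sox2 and at background in F9-Sox2, and its line difference grew from 2.01 to 4.67 (adjusted p = 5.3e-06), while Sox21, not detected in P19 EC, was detected in P19-Sox2 (8.44 and 8.52). On this brightest Sox21 probe the line difference moved from -6.37 to -3.52. Its other kept probes moved the opposite way, from -1.33 to -1.70 and from -2.88 to -3.38.

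**Figure D4:**
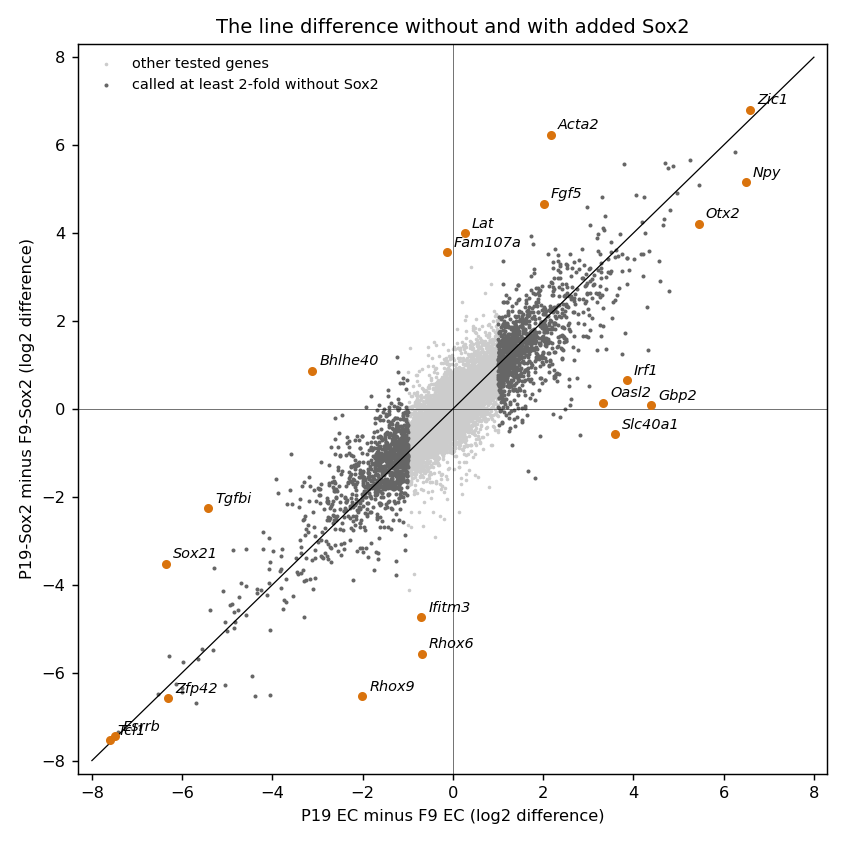
The P19 minus F9 log2 difference of each of 8932 tested genes without added Sox2 (horizontal axis) and with it (vertical axis), with genes called at least 2-fold without Sox2 in dark grey and the rest in light grey. The line marks equal differences. Named genes off the line include Gbp2, Oasl2 and Slc40a1 near 0 on the vertical axis, and Acta2 and Fgf5 above it, while Esrrb, Tcl1 and Zic1 lie on it.

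The line difference was set beside EpiSCf against ESCf, which shares no array with it and contrasts a primed with a naive stem cell (5379 genes called, 60.2%, 2940 higher and 2439 lower in EpiSCf). Of the 2211 genes (24.8%) at least 2-fold different between the carcinoma lines, 1434 (64.9%) had the same sign and 1107 (50.1%) were called in the same direction, while 483 were called the opposite way. Across the 8932 genes the log2 differences correlated at r = 0.32 and rho = 0.20, again as a description. At least 2-fold, 29% of genes differed between EpiSCf and ESCf, 15.5% higher and 13.5% lower. Genes at least 2-fold higher in both comparisons numbered 391, which is 35.1% of those in P19 EC and 28.2% of those in EpiSCf. Genes at least 2-fold lower in both numbered 361, 32.9% and 29.9%. Higher in P19 EC but lower in EpiSCf were 95, and lower in P19 EC but higher in EpiSCf 113. Of the 16 naive genes lower in P19 EC, 15 were also lower in EpiSCf and 1, Gbx2, was opposite. Of all 18 tested naive genes 17 were lower in EpiSCf and 1 higher, beside 27.3% and 32.9% of all tested genes. Nearly any choice from this list would therefore overlap as much.

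The comparison rests on 1 EpiSC line, and levels in the male lines (ESCm and EpiSCm) are given for some of the genes. Tcl1, Esrrb, Nr5a2, Rbmxl2 and Laptm5 were far lower in both comparisons, with log2 differences in EpiSCf of -6.78, -7.85, -2.91, -7.10 and -7.37. Npy, Cxcl12, Efna5, Zfp608 and Fgf8 were higher in both (7.45, 3.64, 4.18, 5.56 and 4.88 in EpiSCf), but Npy was not detected in EpiSCm (4.46 and 4.58). Zic1 and Cftr, by contrast, were detected in neither ESCf nor EpiSCf, so of these 6 groups they were detected in the P19 groups alone. Gbx2 was lower in P19 EC (-6.01) and higher in EpiSCf (1.43), whereas EpiSCm stood low (6.37 and 5.73 against 11.14 and 11.10 in ESCm). Dppa4 stood at log2 12.55 and 12.60 in P19 EC and was not detected in EpiSCf (4.57 and 4.60), and Dnmt3l, the cofactor of de novo methylation, stood at 11.87 and 11.93 in P19 EC and 5.11 and 5.46 in EpiSCf. Pou5f1 was higher in P19 EC than in F9 EC and lower in EpiSCf than in ESCf on its main probe (-0.76), though its second probe gave -0.10. Nanog differed by -2.79 between the carcinoma lines and by -0.87 between EpiSCf and ESCf, and it stood at 9.92 and 9.58 in EpiSCm against 12.76 and 12.70 in ESCm. Dppa4, Dnmt3l, Klf2 and Dppa5a were detected in P19 EC and EpiSCm and not in EpiSCf.

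**Figure D5:**
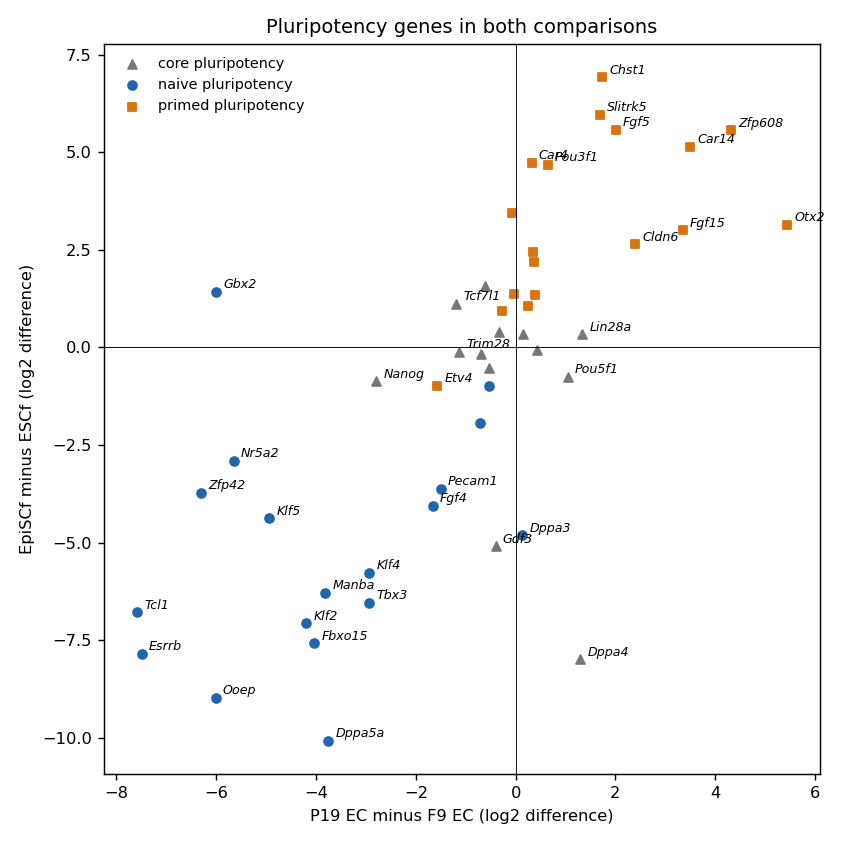
The P19 EC minus F9 EC log2 difference (horizontal axis) and the EpiSCf minus ESCf log2 difference (vertical axis) for the tested genes of the core (grey), naive (blue) and primed (orange) lists. Lines mark 0. Naive genes lie in the lower left, except Gbx2 above the horizontal line and Dppa3 just right of the vertical line. Most primed genes lie in the upper right, where Otx2 lies farthest to the right. Primed genes left of the vertical line include Sox4 and Zic2, near it, and Etv4, in the lower left.

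Line differences were not spread evenly over the genome. The chromosome 1 median was 0.23, with 38.3% of its 428 tested genes higher and 12.1% lower in P19 EC, and the chromosome 13 median was -0.27, with 17.9% of 318 genes higher and 43.1% lower. These were the highest and lowest among autosomes. Without background correction these medians were smaller, 0.12 for chromosome 1 and -0.14 for chromosome 13, with the same sign. Chromosomes 8, 12 and X stood at -0.19, -0.21 and 0.20, and the Y, with 5 tested genes, at 0.69. In the Sox2-overexpressing pair the medians of chromosomes 1, 13, 8, 12 and X were 0.12, -0.11, -0.08, -0.42 and 0.18, of the same sign but not of the same order. On chromosome 1, Gbx2, Nr5a2, Msc and G0s2 differed most, all lower in P19 EC (-4.05 for Msc, -3.92 for G0s2), against the direction of the chromosome's median. On chromosome 13, Tgfbi, Nln, Ntrk2 and Nrn1 differed most (-5.42, -4.35, 3.38 and 3.37).

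Against male ES cells (ESCm), the chromosome 8 median was 0.32 in F9 EC and 0.07 in P19 EC, and it was 0.34 in F9-Sox2 and 0.22 in P19-Sox2. The X median was 0.42 in P19 EC, 0.45 in P19-Sox2 and 0.06 in F9 EC, beside 0.49 in female ESCf and 0.07 in female EpiSCf. Within chromosomes, runs of 41 neighbouring tested genes were examined by a rule chosen after the values were seen. The lowest run lay on chromosome 12 from Eml1 to Crip2, with a median of -1.16, 33 genes lower and 1 higher, and the second lowest on chromosome 8 from Meak7 to Urb2, with a median of -1.0, 30 lower and 3 higher. The Sox2-overexpressing arrays, which did not choose these runs, gave -1.19 and -1.04. Against ESCm the same runs stood at 0.95 and 0.79 in F9 EC, at -0.02 and -0.12 in P19 EC and at 0.47 and 0.26 in EpiSCf. The highest runs lay on chromosome 3 from Trmt10a to Wls and on chromosome 4 from Ldlrad2 to Pramel12, both with a median of 0.89 (0.76 and 0.84 in the Sox2-overexpressing pair). Against ESCm these stood at -0.74 and -0.61 in F9 EC and at -0.03 and 0.02 in P19 EC, and the run on chromosome 3 stood at -0.28 in ESCf and -0.97 in EpiSCf, farther from ESCm than F9 EC. Other runs lay farther from ESCm in P19 EC than in F9 EC, on chromosome 14 (-0.79 against -0.07), chromosome 13 (-0.50 against 0.32) and X (0.57 against -0.19). Their line medians of -0.73, -0.69 and 0.73 were smaller in the Sox2-overexpressing pair, at -0.35, -0.41 and 0.6. DNA was not measured, and the part of gene dosage in these runs was not tested.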

How the data were processed

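Intensities were taken from the deposited table of non-normalized probe intensities with detection p-values, and the log2 values that the authors normalized served as an alternative (correlation 0.991 to 0.992 on the 4 arrays). BeadStudio 3.2, RMA and lumi are named per the submitters' processing notes. Background was corrected from the detection p-values (limma 3.58.1 in R 4.3.3, offset 16), followed by quantile normalization and log2. Of 25697 probes 23978 had a gene symbol. Both arrays of at least 1 group detected 13082 probes at p under 0.01, and the 12324 of these with a symbol were kept. A gene was represented by its brightest kept probe, which gave 8932 genes. Other kept probes were called opposite for 50 genes, none of them named. One limma model was fitted over 24 arrays in 12 groups (residual df 12), with Benjamini-Hochberg adjustment over all genes and calls at adjusted p under 0.05. It was tested on simulated data. A fold against a group in which no array detected the gene is a lower bound, set by the detection limit.

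The arrays, gene lists and tests were chosen with earlier results of these data known. Named were 8 set genes, the 12 largest rises and falls, the 5 most changed called members of a list at most, uncalled members by role, the 5 largest changes each way between the pairs and up to 4 genes of the outermost chromosomes. Outside that rule, Alpl, B2m, Ccnd2, Col5a2, Dcn, Dcx, Dnmt3b, Dppa5a, Etv4, Id3, Ifitm2, Isg15, Jak1, Klf2, Klf5, Lefty2, Lifr, Pim1, Pou3f1, Slc7a11, Spred1, Spry4, Stat3, Tapbp, Tbx3, Timp1, Utf1 and the ends of the gene runs were chosen after their values were seen. Alternatives changed normalization, background, offset, source of values, filter, probe choice, groups fitted, block, prior and arrays left out.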

Additional observations from a re-analysis of the deposited data

Results flagged for a closer look

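The line difference was measured once without and once with overexpressed Sox2, and for 63 of the named genes limma's test of the change between the 2 pairs passed adjusted p under 0.05. Values are log2 differences, P19-Sox2 minus F9-Sox2, less P19 EC minus F9 EC, so a negative value means that P19 stood lower relative to F9 in the overexpressing pair than in the pair without added Sox2. Such changes were called for 9.99% of all tested genes. The count of 63 cannot be set against that share, because some genes were named for the size of this same change. Others were named for large differences between P19 EC and F9 EC, which enter the change. Among the interferon and MHC class I genes, the change was -4.30 for Gbp2, -3.18 for Oasl2, -3.19 for Irf1, -1.76 for Tapbp, -0.88 for Ifitm2 and -4.04 for Ifitm3. Among genes of the naive, core and primed networks it was -2.47 for Dppa3, 1.0 for Klf2, 0.79 for Tbx3, 0.68 for Nanog, 1.32 for Tcf7l1, 2.65 for Fgf5, -1.23 for Otx2 and -2.0 for Zfp608. Among genes of the streak, endoderm, trophoblast and neural lists it was -3.42 for Cdx2, -2.40 for Wnt8a, -1.11 for Fgf8, -0.92 for Gata6, -1.25 for Lamb1, 1.64 for Sox7, -0.99 for Rhox5, -4.88 for Rhox6, -4.52 for Rhox9, 2.84 for Sox21 and -1.34 for Npy. The Sox21 value is that of its brightest probe, and its other kept probes changed in the opposite direction. Among genes of signalling pathways it was -1.52 for Axin2, -1.29 for Fzd10, 1.30 for Sfrp1, -1.22 for Bmp4, 1.48 for Id1, 1.02 for Id2, -0.90 for Nog, -1.19 for Nodal, -2.13 for Lefty2, -0.97 for Dusp4 and -0.74 for Pim2. Among imprinted genes and RNA-binding proteins it was 1.70 for Cdkn1c, 0.96 for Grb10, 0.71 for Igf2, -1.19 for Phlda2 and -2.97 for Igf2bp3. For other named genes it was 4.06 for Acta2, -0.73 for Alpl, 3.99 for Bhlhe40, -0.81 for Ccnd1, -1.16 for Col5a2, -0.79 for Dnmt3l, 0.63 for Eif2s3y, -1.24 for Esrp1, 3.70 for Fam107a, -2.11 for Fam171b and 2.32 for G0s2. It was also 0.84 for Gadd45a, 3.73 for Lat, -2.45 for Msc, 1.56 for Ndrg1, 1.02 for Nrn1, 0.77 for Sdhb, -4.16 for Slc40a1, 1.82 for Slc7a11, 0.91 for Stk39, 3.17 for Tgfbi and -0.96 for Twist1. Each group held 2 arrays, the overexpressing lines are labelled only by line and transgene, and the part of separate derivation or culture of those lines in these changes was not tested.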

How the results depend on the processing

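The count of genes called between P19 EC and F9 EC stayed within 1.5 times of 4920 under every alternative run, from 3582 with detection required on every compared array to 5200 with only the compared groups in the fit. Leaving out 1 array gave 4175 to 4241 calls for this pair, 4349 to 4537 for the Sox2-overexpressing pair and 4665 to 4717 for EpiSCf against ESCf. Of the 2211 genes called at least 2-fold, 2198 to 2211 were still called the same way under each setting that measured them all, and 2 turned sign with the mean over probes. With detection required on every compared array 1298 of them were measured, 1294 of these were still called and 1 turned sign. The change in the line difference was the least stable count. Its 892 calls became 562, and its 432 lower calls 252, with detection required on every compared array, where fewer genes were tested. Without 1 array it gave 606 to 754 calls, 298 to 356 of them higher and 299 to 398 lower, and the cause was not tested. Median scaling in place of quantile normalization moved the split of EpiSCf against ESCf from 2940 higher and 2439 lower to 3547 and 1871, and left P19 EC against F9 EC at 2264 and 2546. With the replicate number as a block, 4879 genes were called for P19 EC against F9 EC, 5105 for the overexpressing pair, 831 for the change and 5325 for EpiSCf against ESCf. Same-numbered arrays did not deviate together (r = 0.000339, 0.123 and -0.0597), so the numbers were not treated as a pairing. No named gene turned sign as a called value. Slide as a block was not run, because slides are not given in the sources used here. With 2 arrays a group, precision is limited by their number, and probes near background have only bounds.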
